A study of Macaca mulatta with 24 samples.

Results

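Respiratory complex I, the NADH:ubiquinone oxidoreductase of the inner mitochondrial membrane, was examined in the nucleus accumbens core (NAcc) through the 38 rows, of 17208 in all, whose gene symbol starts with NDUFA, NDUFB, NDUFC, NDUFS or NDUFV followed by a digit. The symbol alone decided membership. Of the 38 rows, 35 are nuclear-encoded subunits of complex I. The other 3 are NDUFA4, now counted as a subunit of complex IV, its paralogue NDUFA4L2, and NDUFC2-KCTD14, a read-through of NDUFC2 and its neighbour. The core subunit NDUFV2 and the subunits encoded by mitochondrial DNA were not analysed here.

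Complex I takes electrons from NADH, passes them along a flavin and a chain of iron-sulfur clusters to ubiquinone, and uses the energy released to pump protons out of the matrix. Its peripheral arm holds the catalytic core, divided into the N module, where NADH is oxidised, and the Q module, where ubiquinone is reduced. The membrane arm holds the proton pumps, which are encoded by mitochondrial DNA, and both arms are surrounded by accessory subunits that serve assembly and stability. In the brain the enzyme supplies much of the proton gradient from which neurons make ATP, and inherited defects of its subunits affect the basal ganglia.

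RNA-Seq had been performed on tissue of 24 unrelated adult male rhesus macaques from 4 cohorts, each animal measured a single time. There were 8 controls, 8 animals of category LD, called LD* because low and binge drinkers had been joined, and 8 HD* animals, of which 4 were heavy drinkers (HD) and 4 very heavy drinkers (VHD). The drinkers had self-administered 4% (w/v) ethanol after schedule-induced polydipsia, with access for 22 h a day over 12 months. Controls went through the same procedures in the same room, with water at both spouts and a 10% maltose dextrin solution to match calories. All were necropsied with no abstinence imposed on the drinkers, and the tissue was a small punch of the core, so that all cell types were measured together and fewer cells of a type cannot be told apart from less RNA per cell. Daily intake was 1.58 ± 0.53 g/kg in LD* animals (SD, n = 8), 2.92 ± 0.16 g/kg in HD animals (SD, n = 4) and 3.37 ± 0.29 g/kg in VHD animals (SD, n = 4). Cohort 4 held 2 LD* animals, cohort 5 held 3 controls, 2 HD and 2 VHD animals, cohort 7a held 2 controls, 3 LD*, 2 HD and 2 VHD animals, while 3 controls and 3 LD* animals came from cohort 7b.

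Levels are TPM, the share of a library's transcripts after division by transcript length, so that levels of different genes can be compared and a rise of some genes lowers the share of others. How many reads stand behind each value is unknown. Markers of neurons, astrocytes, oligodendrocytes and microglia were detected in every animal, as were the striatal projection neuron markers. Control 6 stood apart, since its 9 striatal projection neuron markers summed to 733 TPM against 2548 to 11138 TPM in the other controls, while its 8 oligodendrocyte markers reached 9667 TPM. VHD 4, VHD 3, LD 5 and control 8 also stood apart, with TMM scaling factors (trimmed mean of M-values, log2) of -0.53, -0.27, -0.22 and -0.19 against -0.09 to 0.18 in the other 20 animals. These 4 animals and control 6 lay at one end of the first principal component of all genes tested. The 9197 genes averaging 10 TPM or more were tested with limma on log2(TPM + 1), and a member is called where the Benjamini-Hochberg adjusted p is under 0.05. Of the 38 rows, 37 passed that filter, NDUFC2-KCTD14 being the exception. Animals are replicates here, and p-values measure the spread between animals.

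Complex I subunits were abundant transcripts of the NAcc but spanned a wide range. Over the 24 animals, 10 of the 38 rows had a mean over 500 TPM, 22 lay between 100 and 500 TPM and 6 under 100 TPM. NDUFA13, a membrane arm subunit also known as GRIM-19, was highest with a mean of 1148 TPM, and 122 genes of the whole table lay above it. NDUFB9, a membrane arm subunit of the LYR protein family, followed with 948 TPM. At the other end, NDUFA4L2, known as a hypoxia-inducible gene, had 11.1 TPM and the read-through NDUFC2-KCTD14 did not exceed 0.024 TPM in any animal. NDUFC2, with 33.5 TPM, overlaps that read-through and its level is therefore uncertain. The 6 core subunits had a median of 284 TPM, from 73.9 TPM for NDUFS1 to 467 TPM for NDUFS3. The 9 accessory subunits of the peripheral arm had a median of 260 TPM and the 20 of the membrane arm a median of 403 TPM. NDUFA8, NDUFA9 and NDUFB6 varied least between animals, with coefficients of variation of 6.35%, 6.44% and 6.63%, whereas NDUFA4L2, NDUFB9 and NDUFB3 varied most, with 44.7%, 32.7% and 31.6%. Together the 38 rows took 1.18% to 1.83% of all TPM of an animal.

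The members did not vary as a single block. For each member, the correlation with the mean of the other members was taken over the 24 animals as a description, in libraries that share their total. It was above 0.5 for 24 of the 38 rows and below 0 for 7. Accessory subunits of the membrane arm made up most of the coherent group, with 15 of 20 above 0.5, as were 6 of 9 of the peripheral arm. Of the 6 core subunits 1 was above 0.5, NDUFS3, a scaffold of the Q module, with r = 0.63. NDUFS1, the largest core subunit and carrier of several iron-sulfur clusters, ran against the rest with r = -0.81. NDUFV1, which binds NADH and the flavin, had r = -0.61. Among the accessory subunits NDUFA10, which resembles a nucleoside kinase, also ran against the rest, with r = -0.64. The heat map of the members by animal shows these opposite patterns.

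**Figure D1:**
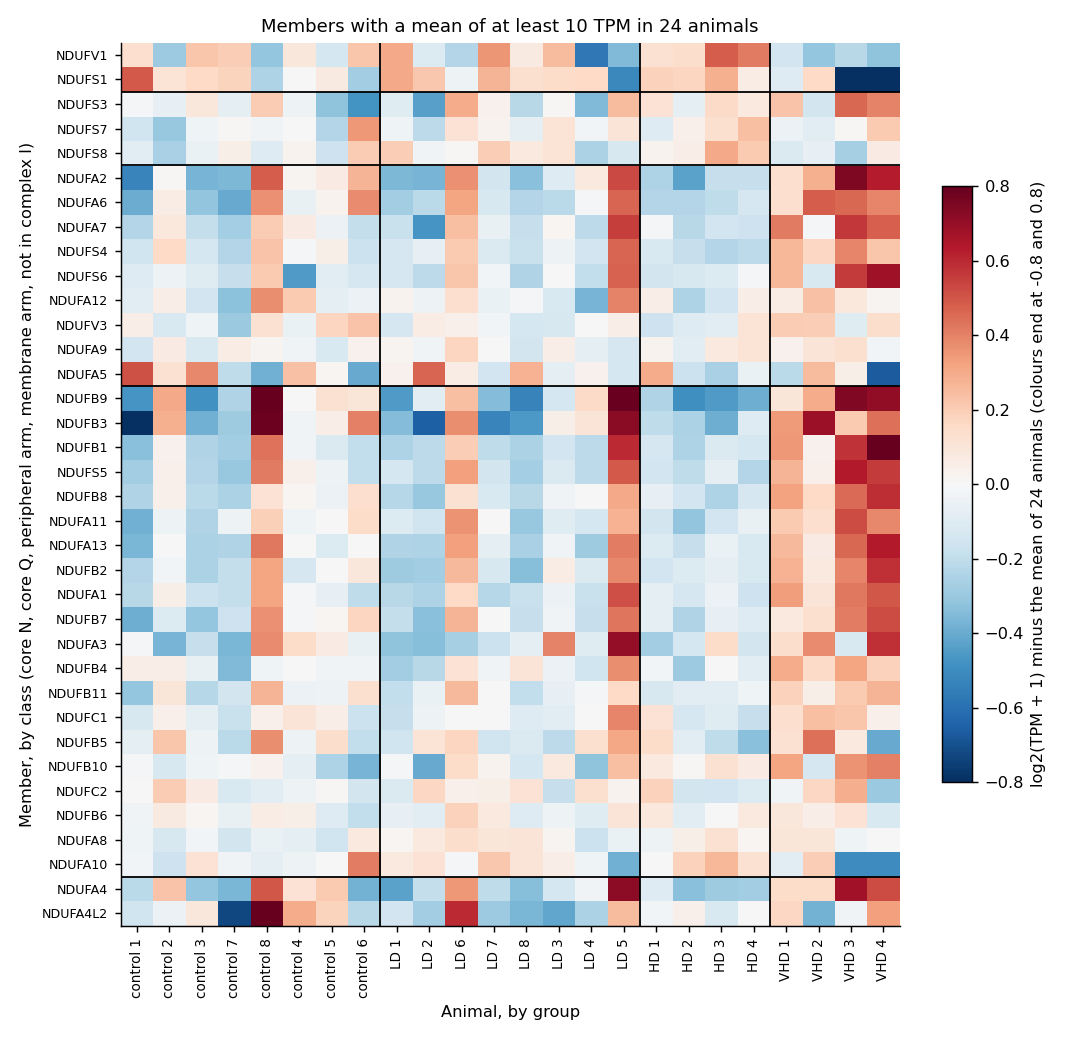
Each cell is 1 of 36 members (rows, by class) in 1 of 24 animals (columns, by group), coloured by log2(TPM + 1) minus the member's mean over the animals. VHD 3, VHD 4, LD 5 and control 8 are high for most accessory subunits, and VHD 3, VHD 4 and LD 5 are low for NDUFS1 and NDUFA10.

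Averaging log2(TPM + 1), centred on the 24 animals, over the 38 rows gave each animal a complex I score. Being a summary of chosen members, it is described without a test. The 4 VHD animals had scores of 0.13, 0.11, 0.21 and 0.20, and the 4 HD animals of -0.04, -0.12, -0.05 and -0.05. VHD and HD animals did not overlap. Controls ranged from -0.18 to 0.21 with a median of -0.02, and LD* animals from -0.14 to 0.25 with a median of -0.07. Outside the VHD group, 3 of 20 animals reached the lowest VHD score, namely LD 5 with 0.25, control 8 with 0.21 and LD 6 with 0.17, so that the VHD range was not particular to very heavy drinkers. The mean score was 0.16 ± 0.05 in VHD (SD, n = 4), -0.06 ± 0.04 in HD (SD, n = 4), -0.02 ± 0.15 in LD* (SD, n = 8) and -0.03 ± 0.12 in controls (SD, n = 8). In TPM, the members summed to between 14672 and 18257 in VHD, 12222 and 13053 in HD, 11956 and 17753 in LD* and 11840 and 16688 in controls.

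**Figure D2:**
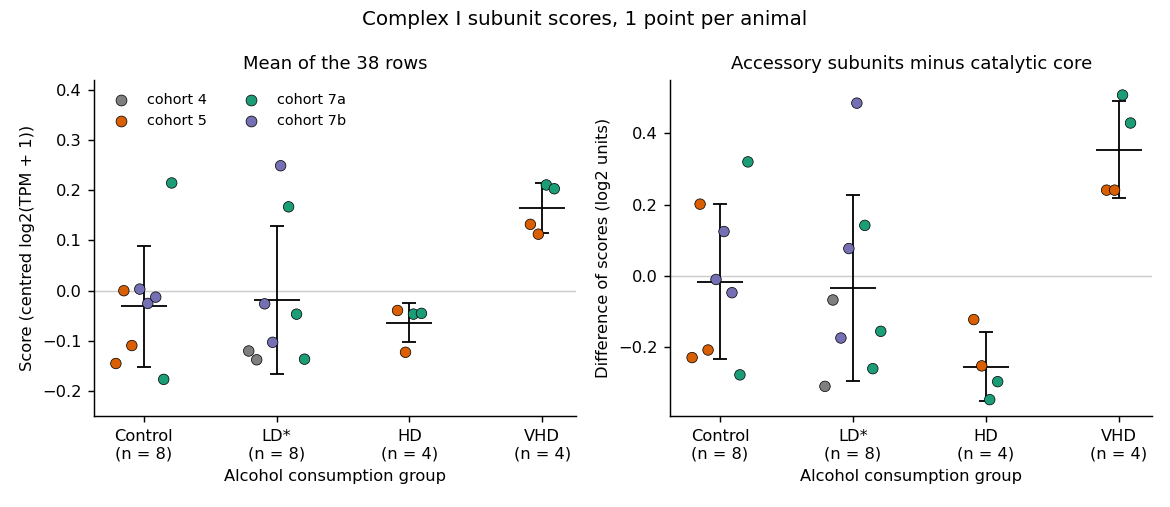
Left, complex I score (mean centred log2(TPM + 1) of the 38 rows); right, mean centred level of the 29 accessory subunits minus that of the 6 core subunits. Points are animals coloured by cohort, bars are mean and SD, and the 4 VHD animals lie above the 4 HD animals in both panels, with control 8 and LD 5 at VHD levels.

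The comparison of VHD with HD animals asked whether the categories joined as HD* were alike. Of the 29 accessory subunits 14 were called higher in VHD animals, with 27 higher by point estimate, while NDUFV1 of the catalytic core was called lower. Of 37 members, 15 were called higher and 1 lower in VHD, that is 40.5% and 2.7% of the members, whereas 4.78% of all 9197 genes were called higher and 19% lower (23.8% in either direction). At 0.001, the stricter threshold of the study for this contrast, limma called 0 members and 0 of all genes. The study itself reported genes called in both directions at that threshold. It used DESeq2 on counts, an unlike method and measure, so the results are not directly comparable. The median change of the members was 0.26 on the log2 scale, with 30 of 37 higher, against a median of -0.23 over all genes. After TMM rescaling, 11 members were called higher and 0 lower, against 973 and 1433 of all genes, where the unscaled values gave 440 and 1746. Among the members, 17 had all 4 VHD animals above all 4 HD animals, as did 6.03% of all genes, and 1 had them all below, as did 23% of all genes.

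**Figure D3:**
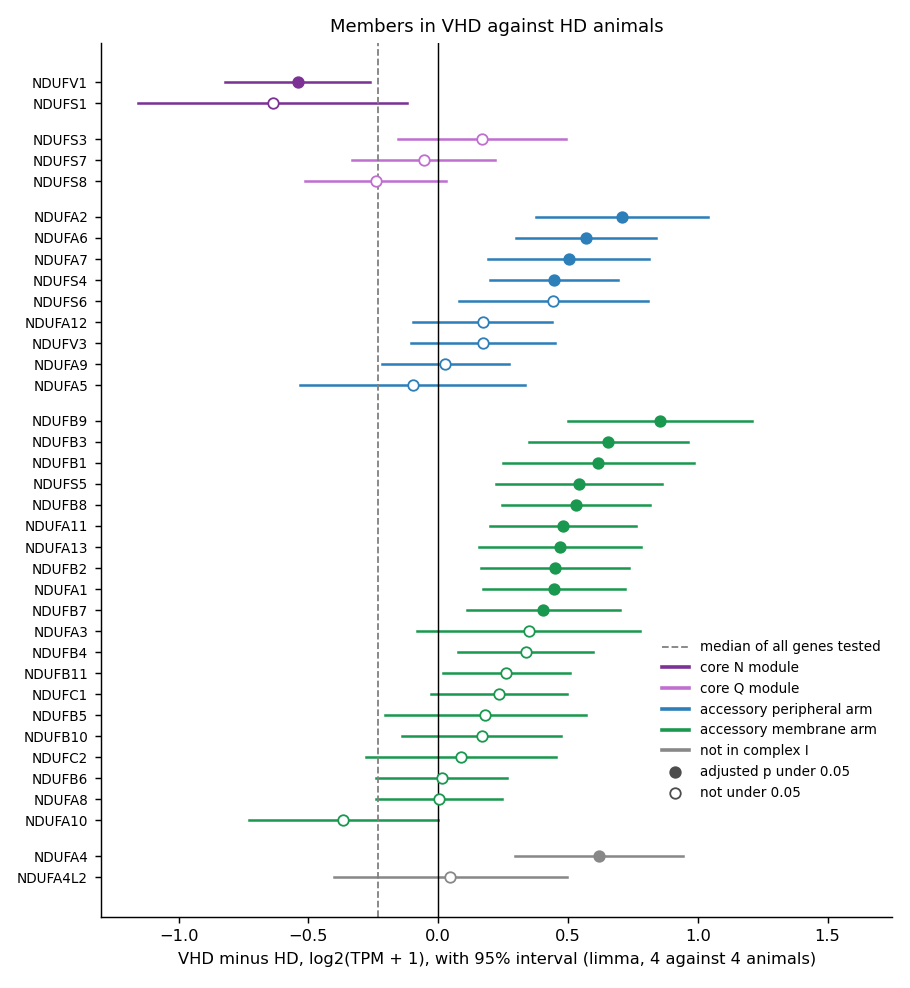
Log2 difference between 4 VHD and 4 HD animals with its 95% interval for 36 of the 37 members tested, grouped by class, with filled points for an adjusted p under 0.05. The dashed line is the median of all genes at -0.23, and the 15 members called higher are 10 subunits of the membrane arm, 4 of the peripheral arm and NDUFA4.

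Core subunits are given first. NDUFV1, the site of NADH oxidation, measured 303, 306, 390 and 371 TPM in the 4 HD animals and 250, 224, 238 and 223 TPM in the 4 VHD animals. Every VHD animal was below every HD animal, and NDUFV1 was lower in VHD by limma (-0.54, SE 0.13, adjusted p = 0.0137). Relative to the median of all genes its change was -0.31. After TMM rescaling, which moved the median of all genes to -0.04, the change was -0.34 with an adjusted p of 0.171, so the call depends on the scaling.

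NDUFS1 measured 81.7, 81.0, 87.9 and 75.1 TPM in HD and 66.9, 80.4, 37.6 and 35.6 TPM in VHD animals. VHD 3 and VHD 4, both of cohort 7a, were low, whereas VHD 2 lay within the HD range. The difference did not pass the test (-0.64, SE 0.24, limma adjusted p = 0.0692).

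In the Q module, 0 of 4 core subunits were called. NDUFS8, which carries iron-sulfur clusters near the ubiquinone site, differed by -0.24 (SE 0.13, limma adjusted p = 0.170). NDUFS7, which passes electrons on to ubiquinone, differed by -0.06 (SE 0.13, limma adjusted p = 0.766), a sign that turned under TMM rescaling to 0.15. NDUFS3 had a positive difference, 0.17 (SE 0.15, limma adjusted p = 0.416), with 498, 435, 511 and 486 TPM in HD and 539, 416, 633 and 606 TPM in VHD animals. Groups overlapped for NDUFS3, NDUFS7 and NDUFS8.

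Accessory subunits of the peripheral arm went the other way, with 4 of 9 called higher, 0 lower and a median change of 0.44. NDUFA2, a subunit of the N module with a thioredoxin-like fold, rose from 319, 281, 333 and 333 TPM in HD to 415, 462, 634 and 585 TPM in VHD animals (0.71, SE 0.15, limma adjusted p = 0.0100). NDUFA6, an LYR protein at the Q module, measured 92.0, 92.2, 94.3 and 99.0 TPM in HD and 120, 152, 150 and 143 TPM in VHD animals (0.57, SE 0.12, limma adjusted p = 0.0103). The HD animals lay within a narrow band for NDUFA6, and every VHD animal was above it. NDUFS4, whose loss causes a Leigh-like encephalopathy, measured 323, 309, 299 and 304 TPM in HD and 422, 394, 461 and 409 TPM in VHD animals (0.45, SE 0.11, limma adjusted p = 0.0176). The call of NDUFS4 was kept in 4 of 8 fits with an animal left out. NDUFA7 was the remaining called member of this arm. The zinc-binding NDUFS6 differed by 0.44 and did not pass (SE 0.17, limma adjusted p = 0.0705), and NDUFA5 had the lowest difference of this arm, -0.10, which was 0.11 after TMM rescaling.

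Accessory subunits of the membrane arm had 10 of 20 called higher, 0 lower and a median change of 0.38. NDUFB9 had the largest change of all members, from 765, 644, 660 and 692 TPM in HD to 967, 1112, 1513 and 1483 TPM in VHD animals (0.85, SE 0.16, limma adjusted p = 0.00649). The animals of cohort 7a, VHD 3 and VHD 4, were highest. NDUFB3, a small membrane subunit, measured 55.6, 53.5, 48.7 and 59.4 TPM in HD and 81.4, 104, 74.1 and 87.2 TPM in VHD animals (0.66, SE 0.14, limma adjusted p = 0.0100). For NDUFB3 the highest animal was VHD 2, so that members did not rank the VHD animals alike. NDUFA13 measured 1043, 994, 1088 and 1038 TPM in HD and 1347, 1181, 1549 and 1750 TPM in VHD animals (0.47, SE 0.14, limma adjusted p = 0.0358). Its call was kept in 2 of 8 fits with an animal left out and was lost with no filter, after TMM rescaling and in the fit of 24 animals. NDUFB8 measured 834, 785, 733 and 795 TPM in HD and 1090, 974, 1194 and 1313 TPM in VHD animals (0.53, SE 0.13, limma adjusted p = 0.0163). NDUFB1, a single-pass membrane subunit, measured 685, 633, 692 and 680 TPM in HD and 954, 768, 1122 and 1376 TPM in VHD animals (0.62, SE 0.17, limma adjusted p = 0.0239). For both, every VHD animal was above every HD animal. The call of NDUFB1 was lost with no filter and after TMM rescaling and kept in 3 of 8 fits with an animal left out. That of NDUFB8 was kept in 5 of these 8 fits. The other members called were NDUFA1, NDUFA11, NDUFB2, NDUFB7 and NDUFS5, with changes between 0.41 and 0.54. TMM rescaling ended the calls of NDUFA1, NDUFB2 and NDUFB7, and the fit with no filter those of NDUFB2, NDUFB7, NDUFS5 and, in the peripheral arm, NDUFA7. NDUFA10 was the membrane arm subunit with a negative difference (-0.36, SE 0.17, limma adjusted p = 0.126), and NDUFA8 and NDUFB6 differed by less than 0.02.

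Outside complex I proper, NDUFA4 measured 678, 579, 599 and 601 TPM in HD and 807, 806, 1161 and 1049 TPM in VHD animals (0.62, SE 0.15, limma adjusted p = 0.0147). Its call was kept in 5 of 8 fits with an animal left out and was lost in the fit of 24 animals (limma adjusted p = 0.0532). Its paralogue NDUFA4L2 measured 10.4, 10.9, 9.58 and 10.6 TPM in HD and 11.9, 7.88, 10.3 and 13.5 TPM in VHD animals, with overlapping groups (0.05, SE 0.21, limma adjusted p = 0.883).

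The split between accessory and core subunits hardly depends on the scaling of a library, because it is a difference within an animal. The parts of that difference do depend on it. The core score differed between VHD and HD animals by -0.28, and by -0.07 after TMM rescaling, while the scores of the accessory subunits of the peripheral and membrane arms differed by 0.33 and 0.34, and by 0.53 and 0.54 after rescaling. The mean centred level of the 29 accessory subunits minus that of the 6 core subunits was 0.24, 0.24, 0.51 and 0.43 in VHD and -0.12, -0.25, -0.35 and -0.30 in HD animals. The groups were 0.61 apart on the log2 scale. Control 8 with 0.32 and LD 5 with 0.48 also reached the VHD range, and the remaining controls and LD* animals lay between -0.31 and 0.20. In single genes, NDUFB9 was 14.5, 13.8, 40.3 and 41.6 times as abundant per length as NDUFS1 in VHD animals and 9.37, 7.96, 7.51 and 9.22 times in HD animals. The same ratio was 31.4 in LD 5 and 26.1 in control 8. Control 6 with 16.4, LD 6 with 15.3 and control 2 with 14.4 also reached the VHD range.

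Cohorts 5 and 7a each held 2 HD and 2 VHD animals, so the comparison could be read within both. The VHD score exceeded the HD score by 0.20 in cohort 5 and by 0.25 in cohort 7a. All 16 called members had the same direction in both cohorts, as did 33 of the 37 members tested. The calls were made on these same 8 animals, so the shared direction is not a replication. The share of all genes was not taken. Of the 16 differences 15 were larger in cohort 7a, NDUFB3 being the exception with 0.74 in cohort 5 and 0.57 in cohort 7a. NDUFS1 differed by -0.15 in cohort 5 and by -1.13 in cohort 7a. With cohort as a covariate, 18 members were called, 16 higher and 2 lower. Calls over all genes also rose, from 2186 to 2847, of which 556 were higher and 2291 lower. The number of member calls varied with the animal left out. Without HD 1, HD 2, HD 3 or HD 4 it was 10, 5, 4 or 7. Without VHD 1, VHD 2, VHD 3 or VHD 4 it was 16, 23, 5 or 13. The share of all genes was not taken for these fits, which also hold fewer animals. NDUFB9, NDUFB3, NDUFA2 and NDUFA6 were called in each of the 8 fits that left out an animal, although NDUFB3 was not called in the fit of 24 animals and 4 groups (limma adjusted p = 0.0859). With VHD 1 and VHD 2 as the only VHD animals, the score difference was 0.19, and 5 members were called higher (NDUFA2, NDUFA6, NDUFB3, NDUFB9 and NDUFS4) and 0 lower, against 2.67% and 6.88% of all genes.

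Other gene groups moved in the same comparison. The 5 general neuron markers were lower in VHD by point estimate, 2 of them called, with sums of 1211 to 2661 TPM in VHD and 2570 to 3142 TPM in HD animals. Of the 9 striatal projection neuron markers 8 were called lower, with sums of 3189 to 5920 TPM in VHD and 8617 to 10193 TPM in HD animals. Of the microglia markers 3 of 6 were called higher, with sums of 360 to 630 TPM against 273 to 359 TPM. All 6 astrocyte markers were higher by point estimate, 1 of them called. Of the 8 oligodendrocyte markers 4 were higher and 4 lower, with 1 called higher. The 2 endothelial markers tested were lower by point estimate, and 0 were called. No marker was at 0 in any animal. The part of cell composition in the difference between VHD and HD members was not tested.

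Genes of the other respiratory complexes and of the cytosolic ribosome were called higher as well. For nuclear-encoded genes of complexes II to V, by symbol, 18 of 42 tested were called higher and 1 lower, that is 42.9% higher and a median change of 0.26. Cytosolic ribosomal protein genes had 74 of 80 called higher (92.5%) and a median of 0.79. Mitochondrial ribosomal protein genes had 10 of 72 called higher and 2 lower, with a median of 0.04. The score of complex I followed that of complexes II to V over the 24 animals with Pearson's r = 0.98 and Spearman's rho = 0.93, and that of the cytosolic ribosomal proteins with r = 0.91 and rho = 0.86. Without the animals farthest from the median complex I score, LD 5 and control 8, r was 0.97 and 0.88. Against the neuron markers r was -0.87 and rho -0.81, and -0.82 without these animals. Without the 4 animals that stood apart in scaling, r was 0.95, 0.80 and -0.68 for these 3 groups. With the first principal component of all genes tested r was 0.85 over 24 animals and 0.67 without the 4. The sign of that component was set so that r is positive, and the genes behind it include the members. These correlations are descriptions over libraries that share their totals. Accessory minus core was likewise tied to the cytosolic ribosomal proteins, with r = 0.95 and rho = 0.91, and r = 0.91 without the 4.

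**Figure D4:**
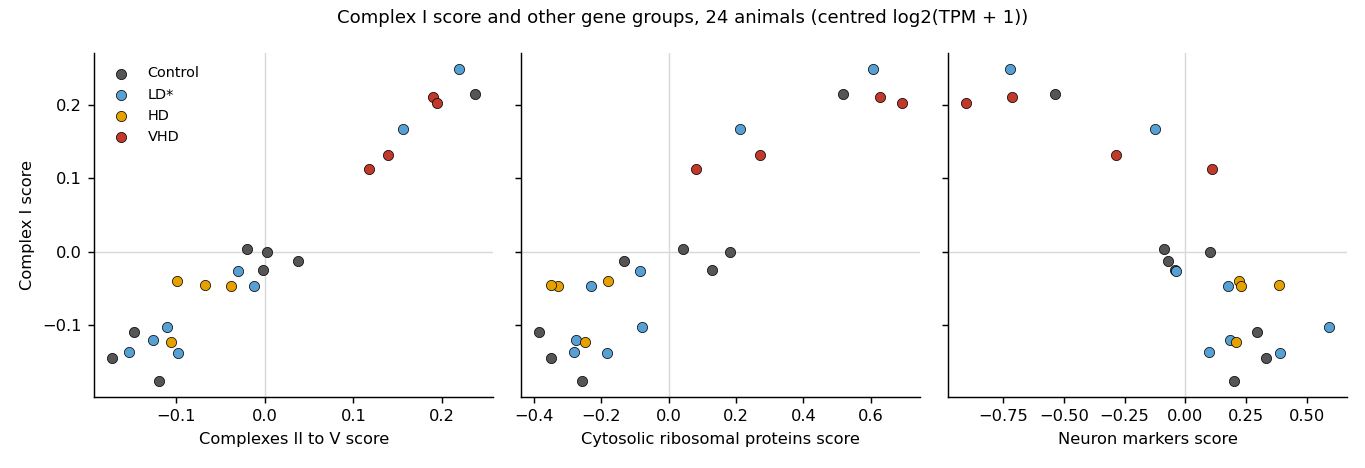
Complex I score against the scores of complexes II to V, cytosolic ribosomal proteins and neuron markers (each a mean of centred log2(TPM + 1)) for 24 animals coloured by group. The points rise in the left and middle panels (r = 0.98 and 0.91) and fall in the right panel (r = -0.87), and VHD 3, VHD 4, LD 5 and control 8 lie at the same end of each.

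Among the genes tested that build or regulate complex I, no call was made. Of 16 assembly factors, which insert cofactors or join the modules and do not stay in the finished enzyme, 15 were among the rows analysed. Of these, 14 passed the filter and 0 were called between VHD and HD, with 1 at an unadjusted p under 0.05 and a median change of -0.01. NDUFAF2 had the smallest adjusted p among them (0.36, SE 0.13, limma adjusted p = 0.0573), and NDUFAF4 differed by -0.46 (SE 0.24, limma adjusted p = 0.181). NDUFAB1, the mitochondrial acyl carrier protein that also sits in complex I, had a mean of 453 TPM and differed by 0.33 (SE 0.11, limma adjusted p = 0.0578). Of 7 regulators of mitochondrial genes, 4 were tested and 0 called, with 1, YY1, at an unadjusted p under 0.05 (-0.41, SE 0.18, limma adjusted p = 0.106). PPARGC1A, NRF1 and GABPB1, with means of 9.38, 9.99 and 5.21 TPM, fell under the filter of 10 TPM and were not tested. The score of the assembly factors followed the complex I score with r = 0.05 and rho = 0.18.

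VHD and HD animals were also set beside the controls. In a fit of the 4 groups, added after the scores were seen, VHD animals differed from controls by a median of 0.29, with 30 of 37 members higher. By limma 0 members were called, as were 0% of all genes, while 17 members were higher at an unadjusted p under 0.05, as were 3.68% of all genes. The smallest adjusted p was 0.129. After TMM rescaling the median was 0.52, with 34 of 37 higher and 27 higher at an unadjusted p under 0.05. The median of all genes moved as well, from -0.22 to 0.01, so that the members' median lay 0.51 above it under both scalings. The share of all genes at an unadjusted p under 0.05 was not taken after rescaling. Without control 6, 16 members were higher at that level. Without control 8, an animal left out for its own high values, 14 members were called higher and 1, NDUFS1, lower, against 2.39% and 17.3% of all genes. With VHD 1 and VHD 2 as the only VHD animals the median was 0.18 and 0 members had an unadjusted p under 0.05. NDUFB8 had the smallest p (0.44, SE 0.12), followed by NDUFB1 (0.55, SE 0.16), and NDUFS1 was the member below controls at that level (-0.52, SE 0.18). HD animals differed from controls by a median of -0.05, with 12 of 37 higher. None of the members was called by limma, as were 0% of all genes, and 0 had an unadjusted p under 0.05. NDUFB9 differed from controls by 0.45 in VHD (SE 0.22) and by -0.41 in HD animals (SE 0.22), and the controls themselves ran from 647 to 1576 TPM with a median of 936 TPM. NDUFV1 differed by -0.27 in VHD and by 0.27 in HD animals. Both comparisons used the same 8 controls.

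With HD and VHD animals joined, no member passed the test. In HD* animals against controls, 32 of 37 members were higher, with a median of 0.09 against -0.10 over all genes. Limma called 0 members and 0% of all genes. The study itself reported genes called in both directions for this contrast at a false discovery rate under 0.05. It used DESeq2 on counts, an unlike method and measure, so the 0% is not directly comparable with its result. In the limma fit 1 member stood higher at an unadjusted p under 0.05, as did 40 of 9197 genes (0.435%). That count was 4 after TMM rescaling and with array weights, 0 with cohort as a covariate and 3 without control 8. The member was NDUFB10, a membrane arm subunit, whose lowest, median and highest levels were 463, 577 and 612 TPM in controls and 545, 642 and 793 TPM in HD* animals (0.26, SE 0.10, limma adjusted p = 0.806). The next in order of p were NDUFS3 (0.24, SE 0.12), NDUFS6 (0.24, SE 0.13), NDUFA8 (0.11, SE 0.06) and NDUFB1 (0.24, SE 0.16), and the groups overlapped for all of them. Of the core subunits NDUFS1 differed by -0.20 (SE 0.17), NDUFS7 by 0.10, NDUFS8 by 0.08, and NDUFV1 by less than 0.01. The score was 0.08 higher in HD* animals, 0.11 higher in cohort 5 and 0.06 in cohort 7a, the cohorts that held both groups, against an SD of 0.12 among controls. The cohort term also let the HD* effect be compared between these cohorts, where limma called 0 members and 0% of all genes, with 0 members at an unadjusted p under 0.05. NDUFB5 and NDUFB3 had the smallest p there, with differences between the effects of -0.41 (SE 0.28) and -0.65 (SE 0.50). Without control 6, 0 members were called in HD* animals, with 1 at an unadjusted p under 0.05, and the score difference was 0.08.

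In LD* animals, too, no member passed. Against controls the median change was 0.02, with 27 of 37 higher, and limma called 0 members, none at an unadjusted p under 0.05, and 0% of all genes. NDUFA8 (0.10, SE 0.06) and NDUFA4L2 (-0.23, SE 0.21) had the smallest p. The score was 0.01 higher than in controls, 0.05 higher in cohort 7b and 0.02 lower in cohort 7a (-0.02). Between HD* and LD* animals the median was 0.09, with 31 of 37 higher. Limma called 0 members, none at an unadjusted p under 0.05, and 0% of all genes, and NDUFB10 (0.20, SE 0.10) and NDUFS3 (0.22, SE 0.12) had the smallest p. The study, with DESeq2 on counts, reported a few genes for HD* against LD*.

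Among the 16 drinkers the score was higher with intake, by 0.07 for each g/kg, with Pearson's r = 0.48 and Spearman's rho = 0.54 as a description. Without the animals farthest from the median intake r was 0.35 over 14 animals. With cohort as a covariate the slope was 0.13. The slope was 0.16 within LD* and 0.23 within HD* animals, and 0.20 and 0.10 among the drinkers of cohorts 5 and 7a. Intake did not order the HD* animals by itself, since HD 2 of cohort 5 and VHD 3 of cohort 7a had the same intake of 3.09 g/kg and scores of -0.12 and 0.21. In limma's fit of single members on intake 0 were called, as were 0% of all genes, while 7 had a positive slope at an unadjusted p under 0.05, as did 1.45% of all genes. With cohort as a covariate 13 members had an unadjusted p under 0.05, 10 with a positive and 3 with a negative slope. The smallest adjusted p of that limma fit was 0.112, and the share of all genes was not taken for it. The count of 7, from the fit without cohort, rested on single animals. It was 0 without LD 2, 2 without LD 1, VHD 1 or VHD 4, and 3 without LD 8. It was 4 without LD 4, 12 without LD 5 and 13 without HD 2. The share of all genes was not taken for these fits. LD 2 and LD 1 had the lowest intakes, 0.47 and 1.24 g/kg, and were the only animals of cohort 4. The lowest intakes therefore cannot be told apart from that cohort. The 7 members were NDUFA1, NDUFA7, NDUFB2, NDUFB3, NDUFB8, NDUFB10 and NDUFS3. NDUFB10 had the smallest p, with 0.15 for each g/kg (SE 0.06, limma adjusted p = 0.457), followed by NDUFS3 with 0.16 (SE 0.06), and NDUFS1 had the most negative slope, -0.18 (SE 0.10).

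**Figure D5:**
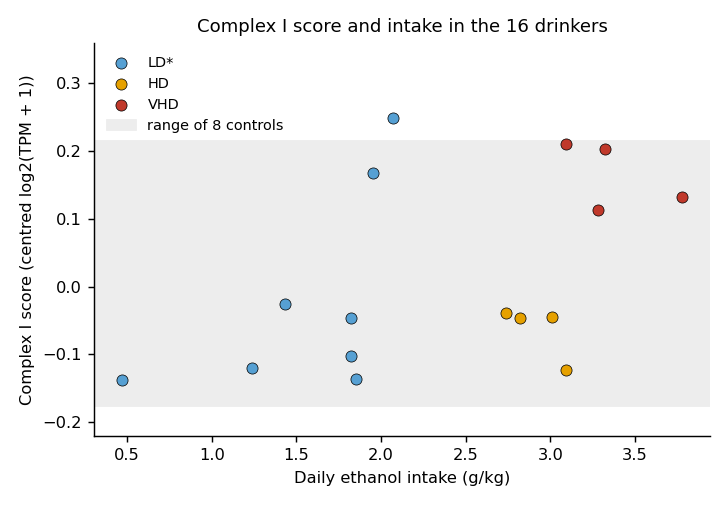
Complex I score (mean centred log2(TPM + 1)) against daily ethanol intake in g/kg for the 16 drinkers, coloured by group, with the range of the 8 controls shaded. HD and VHD animals share intakes near 3 g/kg and lie apart in score, and LD 5 and LD 6 lie at VHD scores with intakes of 2.07 and 1.95 g/kg.

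Cohort, fitted beside group, was tied to none of the members by limma's F test, as to 0% of all genes. At an unadjusted p under 0.05 stood 1 member, against 8.32% of all genes, and 0 without control 6. That member was NDUFA5, a subunit of the Q module, with 129 ± 28 TPM in cohort 4 (SD, n = 2), 122 ± 23 TPM in cohort 5 (SD, n = 7), 98.0 ± 18 TPM in cohort 7a (SD, n = 9) and 104 ± 15 TPM in cohort 7b (SD, n = 6), and the cohorts overlapped. NDUFB7 followed, with a mean of 515 TPM in cohort 5 and 618 TPM in cohort 7a.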

How the data were processed

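PolyA-selected libraries had been sequenced on a HiSeq instrument, aligned to the MacaM assembly with STAR 2.5.2b keeping unique alignments, and counted on genes with HTSeq 0.6.1p1 by the authors, who tested counts with DESeq2. The paper and the public record differ on whether libraries were stranded and paired-end. The deposited values are TPM made by the authors. The gene lengths used are not given in the sources used here, and reads shared with near-identical copies, or with a gene overlapping the member, could be lost or misassigned. All 24 columns were matched to animals by title, with 0 columns unmatched. The paper gives an average number of reads per sample, but the depth of each animal is unknown, so no counting error is given.

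Values were transformed to log2(TPM + 1), which understates changes of low genes. Linear models were fitted with limma 3.58.1 (empirical Bayes with a trend) in R 4.3.3 to the 9197 genes averaging 10 TPM or more. The 3-group model used 24 animals, VHD against HD the 8 HD* animals, and the intake slope the 16 drinkers, with Benjamini-Hochberg adjustment over all genes. The models were tested on simulated data in which genes varied independently. That setting does not show the rate of false calls where genes vary together, as in these animals. Summaries used Python 3.11.15, numpy 2.4.6, pandas 2.3.3 and scipy 1.17.1, with plots from matplotlib 3.10.9. Members and lists were chosen with earlier results of these data known. Values of 1 core subunit are not reported here, though it enters scores and counts. Members named with values are the other core subunits, the 5 smallest p in HD* against controls, the 2 smallest in other comparisons, the 2 highest and 2 lowest levels, and members outside complex I. Others named (called members, and extremes of a class) were chosen after their values were seen. By symbol, 36 of 38 members matched RefSeq (T2T-MMU8v2.0), a different build, so no coordinates or sequences are given. Alternatives were pseudocounts of 0.1 and 8, a filter of 1 TPM or none, TMM rescaling (trimming 30% of M and 5% of A), array weights, only the compared groups, 4 groups over 24 animals, cohort as covariate, and each animal left out. Fits with VHD 1 and VHD 2 alone, without control 8, and of VHD or HD against controls were chosen after seeing the data.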

Additional observations from a re-analysis of the deposited data

Results flagged for a closer look

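Within groups of 4 to 10 animals, 135 sets of values were examined for an animal far from the others by Dixon's criterion, which flags about 5% of groups by chance, and 11 were flagged. Control 8 had a complex I score of 0.21 where the other controls lay between -0.18 and 0.00, and it was also high for NDUFA1 (877 TPM against 603 to 727), NDUFA13 (1513 TPM against 876 to 1130), NDUFB1 (1015 TPM against 596 to 769), NDUFS5 (711 TPM against 431 to 548) and NDUFA4L2 (31.9 TPM against 5.96 to 13.2). LD 5 was high among LD* animals for NDUFA1 (1004 TPM against 592 to 786), NDUFB1 (1135 TPM against 629 to 861) and NDUFB9 (1568 TPM against 624 to 1070). HD 2 had a score of -0.12 where the other HD animals lay between -0.05 and -0.04. Control 6, the animal with few striatal projection neuron transcripts, was high for NDUFS7 (482 TPM against 307 to 382). These members move together, so the flags of an animal are not independent of each other.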

How the results depend on the processing

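No paired analysis was possible because the groups were made up of different, unrelated animals. For VHD against HD, 16 members were called, 10 with no filter on low values, 11 after TMM rescaling, 14 in the fit of 24 animals, 18 with cohort, 5 with VHD 1 and VHD 2 alone, and between 4 and 23 with an animal left out. All 16 kept their direction under every alternative run. The score difference between VHD and HD animals was 0.43 and that between HD* animals and controls 0.21 after TMM rescaling, against 0.23 and 0.08, and with an animal left out they ran from 0.21 to 0.25 and from 0.06 to 0.12. Over all genes TMM rescaling moved the calls between VHD and HD from 440 higher and 1746 lower (20.1% higher) to 973 higher and 1433 lower (40.4% higher). The LD* score difference of 0.01 ran from -0.03 to 0.05 and the intake slope from 0.06 to 0.09 with an animal left out, and the slope was 0.14 after TMM rescaling. For VHD against controls 15 members were called without control 8. Otherwise counts of called members in the other comparisons were 0 under every alternative run. Signs turned for members near 0: NDUFV1 in HD* against controls (-0.063 to 0.052 with an animal left out, and -0.030 with cohort), NDUFA4L2 in VHD against HD (-0.055 to 0.18, and -0.080 with VHD 1 and VHD 2 alone), NDUFA5 there (-0.23 to 0.075, 0.11 after TMM rescaling and 0.065 with VHD 1 and VHD 2 alone), NDUFS3 there (-0.026 with VHD 1 and VHD 2 alone) and NDUFS7 there (0.15 after TMM rescaling). The cause of these changes was not tested. The unknown depth of each animal and the 4 animals per category limit what VHD against HD can show.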
